A study of Rattus norvegicus with 17 samples.

Results

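The translation initiation factor genes of the rat are described here, chosen by name alone: every probe set that the array annotation pairs with a single symbol starting with Eif1 to Eif6, with the eIF4E-binding protein genes included. This rule gave 44 genes of the 14506 genes on the arrays, measured by 45 probe sets, since Eif3h had 2 and the brighter was used. By symbol, 14 belonged to the eIF2 group, 10 to the eIF3 group, 12 to the eIF4 group and 8 to the eIF1, eIF5 and eIF6 families. No filter on dim values was applied, so all 44 were tested. Eif4g1, Eif4a3, Eif3f, Eif3g and Eif3m were not analysed here.

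Translation starts when a ternary complex of eIF2, GTP and initiator tRNA joins the small ribosomal subunit together with eIF1, eIF1A, eIF3 and eIF5, and this complex is brought to the capped end of an mRNA by eIF4E, eIF4G and the helicase eIF4A. The kinase mTORC1 acts on this step mainly through protein phosphorylation: it phosphorylates the eIF4E-binding proteins, which otherwise hold eIF4E away from eIF4G, and, through S6 kinase, eIF4B. A second route runs through the eIF2 kinases, which phosphorylate eIF2 alpha and so slow its recharging by eIF2B, while translation of Atf4 increases. Arrays measure transcript levels only, so neither phosphorylation nor translation was observed.

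The study compared tumours of p27Kip1 (Cdkn1b) mutant rats that received NVP-BEZ235, an inhibitor of PI3K and mTOR, with tumours of rats that received polyethylene glycol (PEG). All 17 samples came from rats of 8 months on a Sprague-Dawley white eye/Wistar-Kyoto background that carried the mutation, so no wild-type tissue was included. The mutation is homozygous in the sample labels and heterozygous in the series design. The control group (PEG, 20 mg/kg) had 7 samples, 2 of them male, NVP-BEZ235 at 20 mg/kg had 6 samples, 2 of them male, and NVP-BEZ235 at 30 mg/kg had 4 samples, 1 of them male. The length of treatment is not given, the treatment protocol field names no treatment, and whether the samples of a group came from separate animals is not stated. The p-values thus reflect only the spread among the samples at hand, which may be partly technical.

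The label for the tissue is pituitary adenoma, whereas the title of the series speaks of pheochromocytoma, which arises from chromaffin cells of the adrenal medulla. The chromaffin genes Th and Dbh averaged 12.29 and 12.32 on the log2 scale over the 17 arrays, and the adrenal cortex genes Cyp11a1 and Star averaged 12.02 and 12.11, with no value of the 4 below 11.46 in any library. Growth hormone (Gh1) ranged from 3.32 to 4.81, prolactin (Prl) from 4.02 to 9.16 and Pomc from 3.64 to 7.86. The highest Prl value was that of control 2 and the highest Pomc value that of 30 mg/kg replicate 3. These markers go against the tissue label in most libraries, and the tissue is called the tumour samples below. Array medians lay between 4.95 and 5.11 and lower quartiles between 3.65 and 3.91, and every member value lay above those quartiles.

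The sample titles carry numbers that go with dose: controls are numbered 1 to 7, 30 mg/kg 1 to 4 and 20 mg/kg 5 to 10. Array pairs of controls 5 to 7 with 20 mg/kg had a median r across genes of 0.983, and pairs of the same controls with 30 mg/kg one of 0.947. For controls 1 to 4 these medians were 0.966 and 0.955. What the numbers stand for is not stated. Each dose was therefore set against all 7 controls and also against the controls of its own numbers, which are 4 female samples for 30 mg/kg and 1 female and 2 male samples for 20 mg/kg. Comparisons against all controls share those 7 samples and are not independent of each other. The comparisons against own-numbered controls share no sample, but both come from 1 fit with a common sex term and spread. They are thus not fully independent either.

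Eif5, which encodes the GTPase-activating protein of eIF2 and triggers GTP hydrolysis at the start codon, was the member that rose with treatment. Its log2 values were 9.19, 8.94, 8.84 and 9.0 in controls 1 to 4 and 9.29, 9.60 and 9.65 in controls 5 to 7. At 30 mg/kg they were 9.89, 9.53, 9.75 and 9.88. At 20 mg/kg they were 9.68, 9.68, 9.82, 9.83, 10.03 and 10.43. All 6 libraries at 20 mg/kg lay above all 7 controls, and the 30 mg/kg libraries lay above controls 1 to 4 but overlapped controls 6 and 7. Controls 5 to 7 themselves lay above controls 1 to 4, with a difference of 0.28 ± 0.15 that did not pass (limma, adjusted p = 0.30). The 10 treated samples were higher than the 7 controls by 0.63 ± 0.093 (SE) on the log2 scale, a 1.55-fold difference with a 95% confidence interval of 0.43 to 0.83 in log2 units (limma with sex as a term, adjusted p = 0.0038). All 10 treated libraries lay above the control mean. Of all genes, 1.48% passed the threshold of an adjusted p of 0.05 in this comparison, 0.517% as higher and 0.965% as lower. Of the 44 members 1 passed, Eif5. No member's treated libraries all lay above all controls, as 0.0827% of all genes' did.

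Eif5 was higher in each dose comparison as well. Against all controls the difference was 0.56 ± 0.12 at 30 mg/kg (limma, adjusted p = 0.0078) and 0.67 ± 0.10 at 20 mg/kg (limma, adjusted p = 0.0072). Against own-numbered controls it was 0.68 ± 0.12 at 30 mg/kg (limma, adjusted p = 0.0093) and 0.52 ± 0.13 at 20 mg/kg, where it did not pass (limma, adjusted p = 0.11). With the samples numbered 1 to 4 fitted alone, the difference at 30 mg/kg was 0.73 and did not pass (limma, adjusted p = 0.17). At 20 mg/kg all 6 treated libraries still lay above the 3 controls of their own numbers. The differences at the 2 doses, each against its own controls, were not told apart: they differed by 0.16, with an interval of -0.23 to 0.55 (limma, adjusted p = 0.90). Without sex as a term, the adjusted p against all controls was 0.060 at 30 mg/kg and 0.052 at 20 mg/kg, and in female samples alone it was 0.072 at 20 mg/kg. Over the 28 alternatives run, the difference at 20 mg/kg against all controls ranged from 0.35 to 0.73 (limma, adjusted p from 0.0022 to 0.92).

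**Figure D1:**
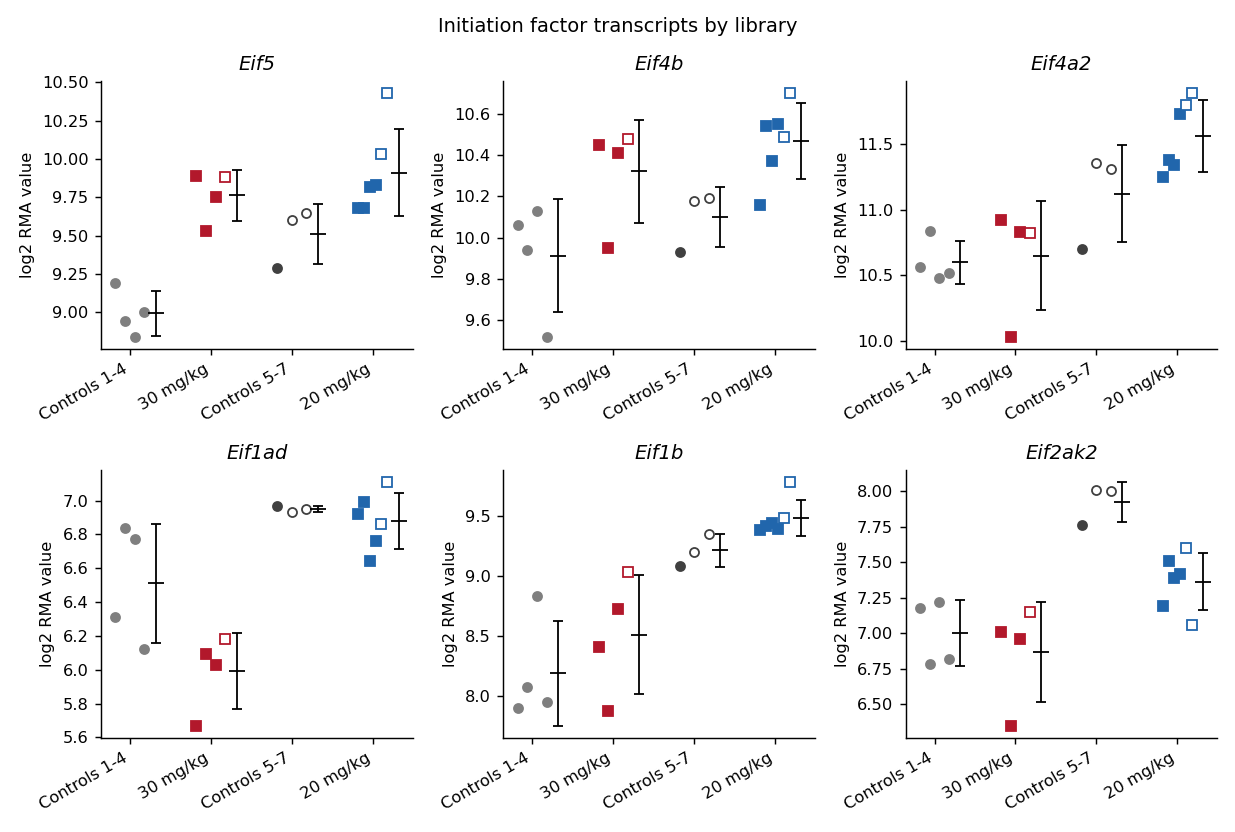
Log2 RMA values of 6 initiation factor genes in each library, arranged as controls 1 to 4, 30 mg/kg, controls 5 to 7 and 20 mg/kg; filled symbols are female and open symbols male samples, and the bars give the mean and SD of each set. Eif5 (9.68 to 10.43) and Eif1b (9.38 to 9.78) at 20 mg/kg lie above every control. Eif5, Eif1ad, Eif1b and Eif2ak2 are each higher in controls 5 to 7 than in controls 1 to 4, without overlap.

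The helicase module of the eIF4 group unwinds the leader of the mRNA. It comprises the helicases Eif4a1 and Eif4a2 and the cofactors Eif4b and Eif4h, which stimulate them. Eif4b values were 10.06, 9.94, 10.13, 9.52, 9.93, 10.18 and 10.19 in controls 1 to 7. They were 10.45, 9.95, 10.41 and 10.48 at 30 mg/kg, and 10.16, 10.54, 10.37, 10.55, 10.49 and 10.70 at 20 mg/kg. All treated libraries except 30 mg/kg replicate 2 lay above the control mean, and both dose groups overlapped the controls. The difference between treated and control was 0.41 ± 0.10 and missed the threshold (limma, adjusted p = 0.054). It passed without 30 mg/kg replicate 2, at 0.46 (limma, adjusted p = 0.027). Against own-numbered controls, Eif4b differed by 0.35 ± 0.15 at 30 mg/kg and 0.44 ± 0.15 at 20 mg/kg, with limma adjusted p of 0.23 and 0.32.

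Eif4a2, the helicase paralogue that is abundant in neural tissue, was higher at 20 mg/kg than at 30 mg/kg and than in all controls. Its values were 10.56, 10.84, 10.48 and 10.52 in controls 1 to 4 and 10.70, 11.36 and 11.31 in controls 5 to 7. They were 10.92, 10.03, 10.83 and 10.82 at 30 mg/kg and 11.25, 11.38, 11.34, 11.73, 11.80 and 11.89 at 20 mg/kg. All 20 mg/kg libraries lay above all 30 mg/kg libraries, and controls 6 and 7 lay within the 20 mg/kg range. Eif4a2 was higher at 20 mg/kg than in all controls by 0.72 ± 0.14 (limma, adjusted p = 0.022), and the adjusted p lay between 0.056 and 0.067 when 20 mg/kg replicate 6, 7 or 8 was left out. The call was also lost without sex as a term (limma, adjusted p = 0.073), in female samples alone (0.093) and with quantile normalization (0.057). Against controls 5 to 7 the difference was 0.58 ± 0.18 and did not pass (limma, adjusted p = 0.24). At 30 mg/kg it was -0.16 ± 0.16 against all controls (limma, adjusted p = 0.61). With each dose set against its own controls, 30 and 20 mg/kg differed by -0.64 ± 0.26, which did not pass (limma, adjusted p = 0.72). Eif4a1 differed by 0.15 ± 0.092 and Eif4h by 0.20 ± 0.080 between treated and control, with limma adjusted p of 0.51 and 0.24.

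The cap-binding arm is the part of initiation on which mTORC1 acts most directly, and none of its transcripts passed the threshold in any of the 7 comparisons. Eif4ebp1, the mTORC1 substrate that sequesters eIF4E, ranged from 6.96 to 7.51 in controls, from 7.17 to 7.70 at 30 mg/kg and from 6.95 to 7.31 at 20 mg/kg. The groups overlapped, and treated samples differed from controls by 0.030, with an interval of -0.23 to 0.29 (limma, adjusted p = 0.95). Its paralogue Eif4ebp2 ranged from 9.0 to 9.76 in controls, from 9.51 to 10 at 30 mg/kg and from 9.20 to 9.73 at 20 mg/kg. All 20 mg/kg libraries lay above controls 5 to 7, with a difference of 0.42 ± 0.15 that did not pass (limma, adjusted p = 0.31). Eif4enif1, which encodes the eIF4E transporter 4E-T, differed by 0.26 ± 0.092 between treated and control (limma, adjusted p = 0.18).

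Eif4e itself, the cap-binding protein, differed by 0.12 between treated and control, with an interval of -0.090 to 0.33 (limma, adjusted p = 0.67). Eif4e2, whose product binds the cap without joining eIF4G, differed by 0.30 ± 0.15 (limma, adjusted p = 0.38). Eif4e3, the member with the lowest mean (5.64), differed by -0.10 ± 0.18 (limma, adjusted p = 0.88). Of the scaffolds, Eif4g2, the eIF4G relative also called DAP5 that lacks the eIF4E-binding region, differed by 0.17 ± 0.093 and Eif4g3 by -0.025 ± 0.11, with limma adjusted p of 0.44 and 0.95. These intervals bound the treated-control differences of the 44 members to within 0.168 to 0.508 log2 units on either side of the estimate.

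The eIF2 group holds the subunits of eIF2, its kinases and the subunits of its exchange factor eIF2B, and by limma 0 of its 14 members passed in any of the 7 treatment and dose comparisons. Between treated and control, 2 of the 14, Eif2s2 and Eif2s3, had an unadjusted p under 0.05 by limma, a share near the 14.4% of all genes. Eif2s2, the beta subunit, ranged from 8.88 to 10.23 in controls, from 9.48 to 10.30 at 30 mg/kg and from 9.97 to 10.24 at 20 mg/kg. Treated samples differed from controls by 0.42 ± 0.16 (limma, adjusted p = 0.22), and 9 of 10 lay above the control mean. Eif2s3, the gamma subunit that binds the initiator tRNA, differed by 0.28 ± 0.13 (limma, adjusted p = 0.34), again with 9 of 10 above the control mean. Eif2a, a separate protein that can deliver initiator tRNA, differed by 0.28 ± 0.16 (limma, adjusted p = 0.44). All 20 mg/kg libraries of Eif2a (7.91 to 8.38) lay above controls 5 to 7 (7.57, 7.67 and 7.82).

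Eif2s1, the alpha subunit that the eIF2 kinases phosphorylate, differed between the control sets. Its values were 7.95, 7.92, 8.19 and 8.32 in controls 1 to 4 and 8.90, 8.97 and 8.89 in controls 5 to 7. They were 7.79, 8.07, 7.96 and 8.33 at 30 mg/kg and 8.54, 8.63, 8.48, 8.67, 8.54 and 8.59 at 20 mg/kg. The 20 mg/kg libraries lay above controls 1 to 4 and below controls 5 to 7, so the direction of the difference depended on the controls used. It was 0.11 ± 0.15 against all controls and -0.31 ± 0.12 against controls 5 to 7, and neither passed (limma, adjusted p = 0.74 and 0.41). Between the control sets alone, Eif2s1 was higher in controls 5 to 7 by 0.76 ± 0.15 (limma, adjusted p = 0.014).

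Among the eIF2 kinases, Eif2ak2 encodes PKR, which is activated by double-stranded RNA and induced by interferon. Its values were 7.18, 6.78, 7.22 and 6.82 in controls 1 to 4 and 7.76, 8.01 and 8.00 in controls 5 to 7, a difference of 0.83 ± 0.21 (limma, adjusted p = 0.041). They were 7.01, 6.35, 6.96 and 7.15 at 30 mg/kg and 7.19, 7.51, 7.39, 7.42, 7.60 and 7.06 at 20 mg/kg. All 6 libraries at 20 mg/kg lay below the 3 controls of their own numbers, with a difference of -0.52 ± 0.18 that did not pass (limma, adjusted p = 0.31). Eif2ak3 (PERK, the kinase of endoplasmic reticulum stress) differed by 0.21 ± 0.12 between treated and control, Eif2ak4 (GCN2, the kinase of amino acid shortage) by 0.17 ± 0.11 and Eif2ak1 (HRI, the heme-regulated kinase) by 0.0090 ± 0.097. Their limma adjusted p were 0.48, 0.55 and 0.98. The 5 measured eIF2B subunits had differences from -0.047 to 0.29, and none passed.

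The eIF3 group, the scaffold that holds the small subunit complex together, had treated-control differences above 0 in 10 of 10 members, from 0.010 (Eif3i) to 0.37 (Eif3d), and by limma 0 passed. Of genes with a mean above the median, 58.4% were above 0. By dose, the count above 0 was 5 of 10 at 30 mg/kg and 10 of 10 at 20 mg/kg against all controls, and 7 of 10 and 9 of 10 against own-numbered controls. At an unadjusted p under 0.05, 2 eIF3 members (Eif3d and Eif3j) and 9 of the 44 members passed, against 14.4% of all genes. Eif3d values were 8.11, 8.38, 8.68, 8.32, 8.80, 9.10 and 9.14 in controls 1 to 7. They were 9.23, 8.29, 8.74 and 9.13 at 30 mg/kg and 8.90 to 9.30 (median 9.15) at 20 mg/kg. Its treated-control difference was 0.37 ± 0.14 (limma, adjusted p = 0.21). Eif3j and Eif3a differed by 0.26 ± 0.12 and 0.16 ± 0.097, with limma adjusted p of 0.33 and 0.50. The probe sets of Eif3h disagreed: the one used differed by 0.19 between treated and control and the other by 0.45, with limma adjusted p, over all probe sets with a single symbol, of 0.61 and 0.022. The other also passed at 20 mg/kg against all controls (0.55, limma adjusted p = 0.0073) but not against controls 5 to 7 (0.53, 0.064). At 30 mg/kg against all controls the signs were opposite, at -0.078 for the one used and 0.30 for the other (limma, adjusted p = 0.81 and 0.067).

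**Figure D2:**
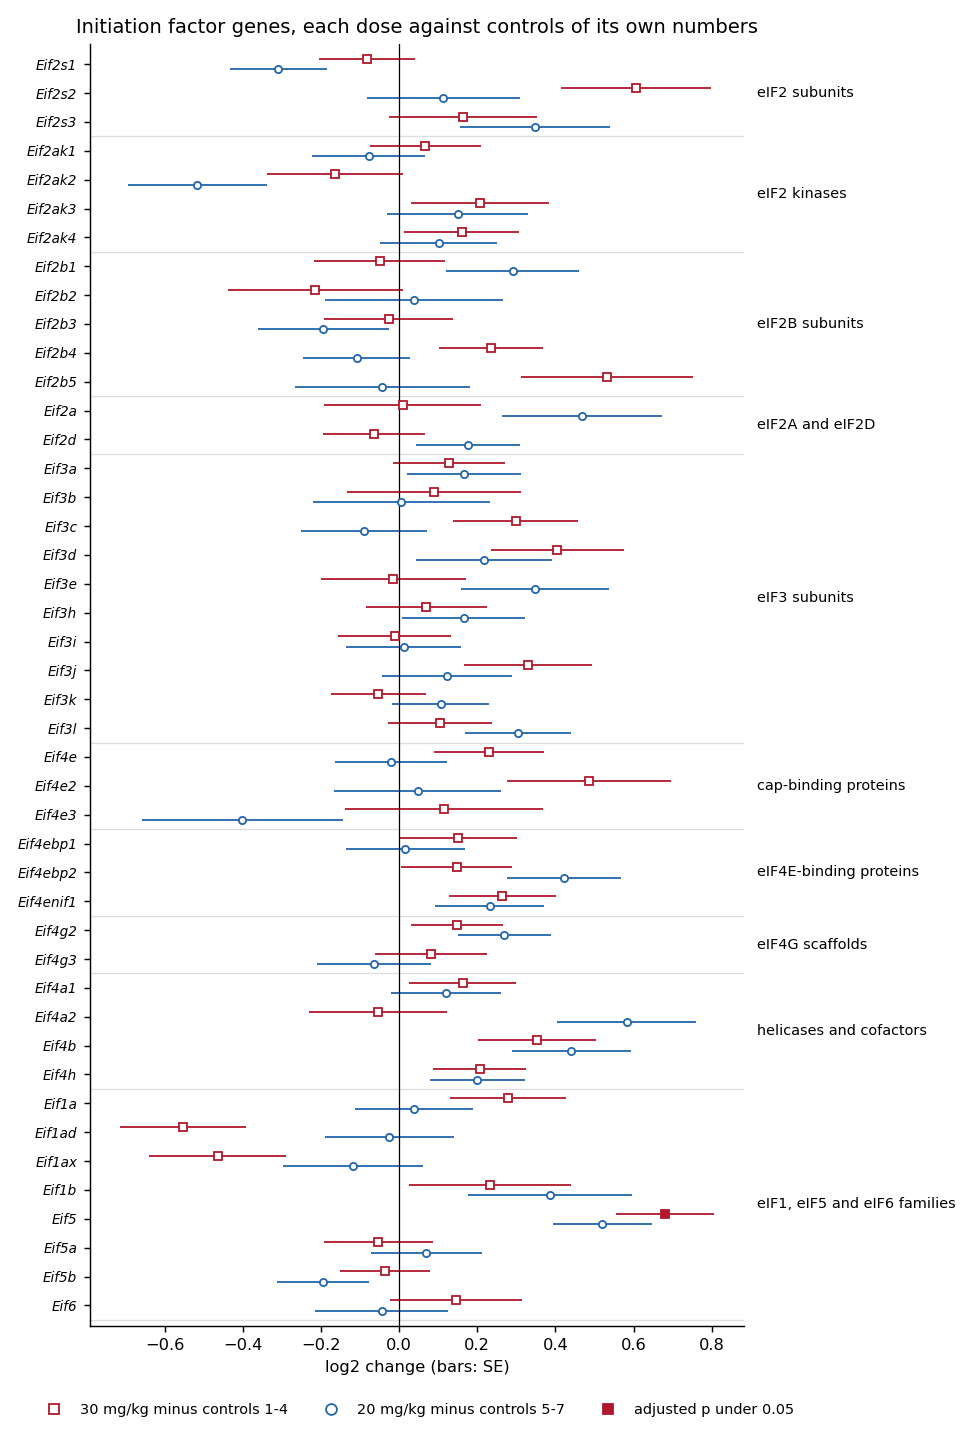
Log2 change of all 44 initiation factor genes, grouped by role, at 30 mg/kg against controls 1 to 4 (squares) and at 20 mg/kg against controls 5 to 7 (circles); bars are standard errors and filled symbols have an adjusted p under 0.05. Eif5 at 30 mg/kg is the filled symbol, and 28 of 44 genes lie on the same side of 0 at both doses.

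Against own-numbered controls, 1 of 44 members passed at 30 mg/kg (Eif5, higher), with 3.01% of all genes called and 1.5% called higher. At 20 mg/kg 0 of 44 passed by limma, with 0.358% of all genes called; 9 members had an unadjusted p under 0.05, against 9.55% of all genes. The libraries did not overlap for 2 members at 30 mg/kg, Eif4a1 and Eif5, both higher, against 3.46% of all genes higher and 3.52% lower. At 20 mg/kg they did not overlap for Eif1b, Eif2a, Eif2s3, Eif4ebp2 and Eif5, which were higher, and for Eif2ak2 and Eif2s1, which were lower. The shares among all genes were 3.22% higher and 2.90% lower. Both doses had the same sign in 28 of 44 members (63.6%) and in 58.7% of all genes, and 22 members (50%) were above 0 at both doses, against 30.5% of all genes and 36.2% of genes with a mean above the median of 5.78. The mean of 43 of the 44 members lay above that median.

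The medians of the eIF2 and eIF3 groups at 20 mg/kg were smaller against own-numbered controls than against all controls. The median log2 change of the eIF4 group was 0.21 at 30 mg/kg and 0.16 at 20 mg/kg against all controls, and 0.16 at both doses against own-numbered controls. The last value, at 20 mg/kg against controls 5 to 7, was 0.042 without control 5, 0.057 without sex as a term and 0.32 in female samples alone. That of the eIF3 group was 0.038 at 30 mg/kg and 0.31 at 20 mg/kg against all controls, and 0.097 and 0.14 against own-numbered controls. Against all controls, the eIF3 median at 30 mg/kg was -0.034 without control 2 and -0.014 without 30 mg/kg replicate 1. Against controls 1 to 4 it was 0.025 without control 1, 0.046 without 30 mg/kg replicate 1, 0.059 without control 2 or without 30 mg/kg replicate 3, and 0.19 without 30 mg/kg replicate 2. Against controls 5 to 7 it was 0.088 without 20 mg/kg replicate 10. That of the eIF2 group was 0.019 and 0.23 against all controls, and 0.038 and 0.070 against own-numbered controls. For comparison, the median of genes with a mean above the median was -0.039 and 0.12 against all controls, and 0.021 and 0.036 against own-numbered controls. The library medians of the 3 groups had within-set SDs of 0.10 (eIF2), 0.16 (eIF3) and 0.17 (eIF4), as large as most of these values. No test was made of a group's median, and no group is called different from another.

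**Figure D3:**
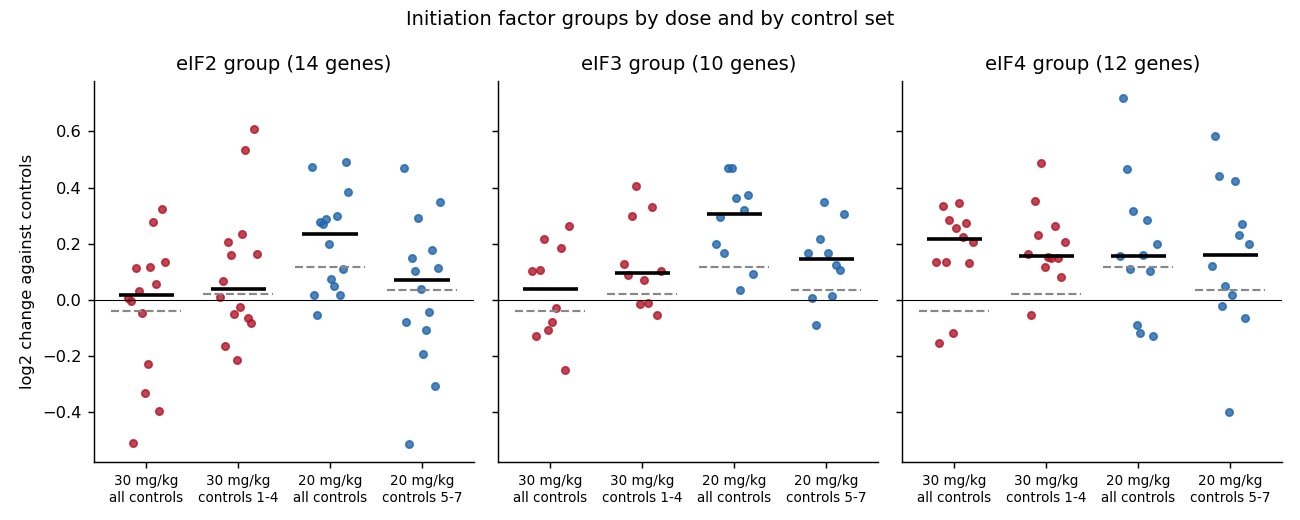
Log2 change of each gene of the eIF2, eIF3 and eIF4 groups (points) at 30 and 20 mg/kg, against all controls and against controls of the same numbers; black lines are group medians and dashed grey lines the median of all genes with a mean above the median. The eIF3 median at 20 mg/kg is 0.31 against all controls and 0.14 against controls 5 to 7, while the eIF4 medians lie between 0.16 and 0.21.

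With all 7 controls, 2 members passed at each dose. At 30 mg/kg these were Eif5 and Eif1ad, with 8.55% of all genes called, 3.66% higher and 4.89% lower. No member's libraries at 30 mg/kg all lay outside the controls, as those of 1.75% of all genes did on the higher and 2.01% on the lower side. At 20 mg/kg they were Eif5 and Eif4a2, with 1.18% of all genes called. Libraries at 20 mg/kg did not overlap the 7 controls for Eif1b and Eif5, both higher, against 0.917% of all genes higher.

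Eif1ad, a gene for a protein with an eIF1A-like domain, was lower at 30 mg/kg. Its values were 6.31, 6.84, 6.77 and 6.12 in controls 1 to 4, 6.97, 6.93 and 6.95 in controls 5 to 7, 5.67, 6.09, 6.03 and 6.18 at 30 mg/kg and 6.64 to 7.11 (median 6.89) at 20 mg/kg. The 30 mg/kg libraries lay below every control except control 4, which lay below 30 mg/kg replicate 4. Eif1ad fell by 0.70 ± 0.15 on the log2 scale against all controls (limma, adjusted p = 0.0096). The difference was -0.55 ± 0.16 against controls 1 to 4 (limma, adjusted p = 0.076). In female samples alone the adjusted p against all controls was 0.11.

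The doses themselves were compared next. Between 30 and 20 mg/kg, 5 of 44 members (11.4%) passed, all lower at 30 mg/kg, with 12.1% of all genes called, 3.92% higher and 8.16% lower. They were Eif1ad (-0.86 ± 0.16, limma adjusted p = 0.0049), Eif4a2 (-0.87 ± 0.16, 0.0053), Eif3k (-0.62 ± 0.14, 0.012), Eif1b (-0.92 ± 0.23, 0.019) and Eif3e (-0.58 ± 0.17, 0.035). Eif3e and Eif3k encode subunits of eIF3, and Eif1b encodes a close relative of the start codon factor eIF1. Libraries did not overlap for 7 members, all lower at 30 mg/kg, against 7.42% of all genes lower and 5.16% higher: Eif1ad, Eif1b, Eif2a, Eif2s1, Eif3h, Eif3k and Eif4a2. Without 30 mg/kg replicate 2 the calls of Eif1b and Eif3e were lost (limma, adjusted p = 0.059 and 0.11). Without 30 mg/kg replicate 4 those of Eif1b, Eif3e and Eif3k were lost (0.071, 0.080 and 0.072). Eif3e also lost its call without 30 mg/kg replicate 3 or 20 mg/kg replicate 6, 7 or 8 (adjusted p of 0.067 to 0.081).

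The control sets had the same treatment but differ in number and in sex. In controls 1 to 4, 0 of 4 samples were male, and in controls 5 to 7, 2 of 3. Overlap of libraries was judged on values not adjusted for sex, so number and sex cannot be told apart there. Of the 5 members called between the doses, 3 (Eif1ad, Eif1b and Eif3k) also had control sets that did not overlap, lower in controls 1 to 4. Eif1b values were 7.90, 8.07, 8.83 and 7.95 in controls 1 to 4 and 9.08, 9.20 and 9.35 in controls 5 to 7. They were 8.41, 7.87, 8.72 and 9.03 at 30 mg/kg and 9.38 to 9.78 (median 9.43) at 20 mg/kg. Higher-numbered libraries were thus higher with or without the inhibitor, and against own-numbered controls Eif1b differed by 0.23 ± 0.21 at 30 mg/kg and 0.39 ± 0.21 at 20 mg/kg, neither of which passed (limma, adjusted p = 0.62 and 0.61). Between the control sets 2 of 44 members passed, Eif2s1 and Eif2ak2, both higher in controls 5 to 7, with 3.61% of all genes called, 2.68% higher and 0.924% lower. Libraries of the control sets did not overlap for 13 members higher in controls 5 to 7, against 10.9% of all genes, and for Eif4ebp2, which was lower, against 10.5% of all genes. Eif5 was among the 13.

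Across the 44 members, the difference between 30 and 20 mg/kg had the same sign as that between controls 1 to 4 and controls 5 to 7 in 39 (88.6%), with Pearson's r = 0.553 and Spearman's rho = 0.514. Over all 14506 genes the sign was shared in 74.1%, with r = 0.631. The treated and the control differences share no library, but each is adjusted by a sex term fitted over all samples, and genes are not independent replicates. When each dose was set against its own controls and the results were compared, 0 of 44 members and 0% of all genes passed by limma. At an unadjusted p under 0.05, 2 members, Eif4a2 (-0.64 ± 0.26) and Eif1ad (-0.53 ± 0.24), and 6.69% of all genes were found. Dose and number set therefore cannot be told apart in the direct comparison of the doses.

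**Figure D4:**
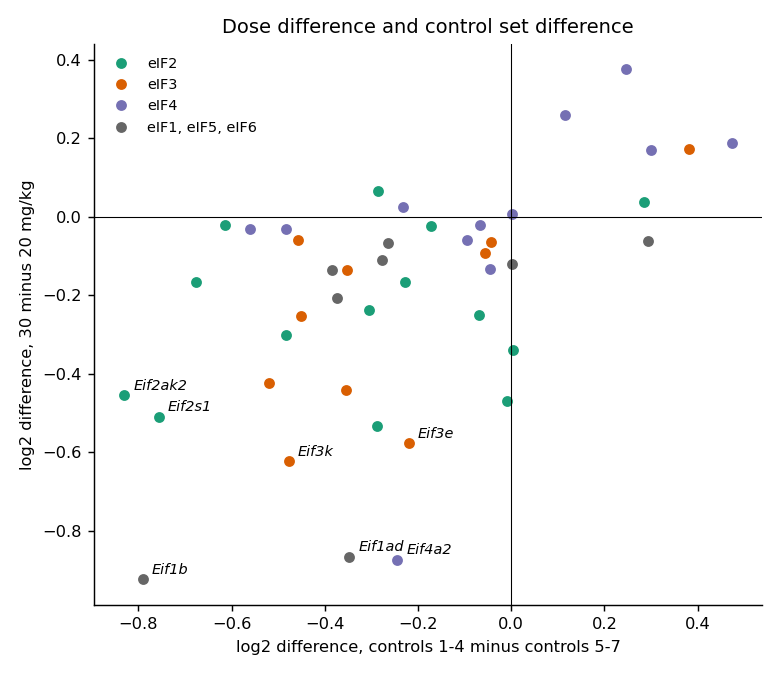
Log2 difference between 30 and 20 mg/kg (vertical) against that between controls 1 to 4 and controls 5 to 7 (horizontal) for each of the 44 genes, coloured by group. Most points lie in the lower left, and 39 of 44 have the same sign on both axes.

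The other members of the eIF1, eIF5 and eIF6 families did not pass in any comparison. Treated-control differences were 0.20 ± 0.11 for Eif1a and -0.30 ± 0.12 for Eif1ax, which encode forms of the scanning factor eIF1A. They were 0.020 ± 0.095 for Eif5a, which assists elongation and termination, -0.068 ± 0.10 for Eif5b, the subunit-joining GTPase, and 0.075 ± 0.12 for Eif6, which keeps the large subunit apart. Several members have close paralogues (Eif4a1 and Eif4a2, Eif1a and Eif1ax, Eif4ebp1 and Eif4ebp2), and cross-hybridization of their probes was not tested.

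The upstream sequence of the 3 members that passed in a comparison of a dose with all controls is shown to give the letters next to the start of each gene, from RefSeq on build GRCr8. Each run is the 250 bases before the annotated start, on the strand of the gene, and capitals mark CCAAT on either strand (ATTGG when read on the other strand) or TATAAA on the gene's strand. Eif5 is at chr6:136410083-136410332 (plus strand), Eif4a2 at chr11:91275324-91275573 (minus strand) and Eif1ad at chr1:212103465-212103714 (plus strand).
Eif5: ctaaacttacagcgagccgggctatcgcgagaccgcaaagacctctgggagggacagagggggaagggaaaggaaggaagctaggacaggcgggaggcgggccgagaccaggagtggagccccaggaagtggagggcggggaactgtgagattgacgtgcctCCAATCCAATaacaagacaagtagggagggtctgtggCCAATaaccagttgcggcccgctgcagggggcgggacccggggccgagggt
Eif4a2: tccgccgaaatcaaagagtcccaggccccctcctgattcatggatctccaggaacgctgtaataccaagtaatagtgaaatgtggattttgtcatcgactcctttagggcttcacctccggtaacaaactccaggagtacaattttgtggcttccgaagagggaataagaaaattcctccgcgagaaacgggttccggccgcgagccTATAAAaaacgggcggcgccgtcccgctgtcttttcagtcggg
Eif1ad: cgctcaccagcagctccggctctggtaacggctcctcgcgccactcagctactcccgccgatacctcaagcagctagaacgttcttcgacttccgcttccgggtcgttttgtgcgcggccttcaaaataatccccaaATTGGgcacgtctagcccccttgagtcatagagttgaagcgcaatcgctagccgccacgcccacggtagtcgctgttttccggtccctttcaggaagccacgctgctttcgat

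The Eif5 window held CCAAT, the letters bound by NF-Y, 3 times, starting 88, 83 and 51 bases before the start. Windows with 3 or more were found for 3 of 39 members (7.69%), Eif2ak3, Eif4a1 and Eif5, and for 2.73% of 27457 genes. At least 1 was found in 11 members (28.2%) and in 34.3% of all genes. For the windows, all genes means these 27457 RefSeq genes and not the 14506 genes of the arrays. The Eif4a2 window held TATAAA 43 bases before the start, as 5.13% of members and 8.38% of all genes did anywhere in the window. In all, 39 of the 44 members had a window, 38 matched by gene identifier and Eif5 by symbol. The others were Eif3e, Eif3h, Eif4b, Eif4e3 and Eif4ebp1.

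Other motifs were counted on both strands of the same windows. The ETS motif CCGGAAGT was in 10 of 39 members (25.6%), among them Eif1b, Eif2a and Eif3d, against 3.29% of all genes. The E-box CACGTG was in 5 members (12.8%) against 5.79%. The FOXO motif GTAAACA was in 0 members against 3.25%, and the ATF4 motif TGATGNAA in 1, Eif2s2, against 3.27%. A C followed by 4 pyrimidines at the first bases is the mark of mRNAs whose translation follows mTORC1 most closely. It was read only on the gene's strand from the annotated start, so the count rests on that start being exact. It was in 1 of 39 members (2.56%), Eif2a, against 2.63% of all genes. Whether this reading finds mRNAs known to carry the mark was not tested. The 2 shares therefore cannot show whether members carry it more or less often than other genes. Eif3e, Eif3h, Eif4b, Eif4e3 and Eif4ebp1 had no window and could not be counted. Member windows had a median GC content of 60.0% against 52.0% for all genes, and the part of base composition in these shares was not tested. All genes were not limited here to those on the arrays or to expressed ones, and the part of expression level was not tested either. A match is a run of letters and not a measured binding site.

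The neighbouring steps of translation gave the following counts, from lists chosen with earlier results of these data known. All 71 measured cytosolic ribosomal protein genes, the classical mTORC1 targets at the level of translation, had a median treated-control difference of 0.18. Of these 69 (97.2%) were above 0, against 58.4% of genes with a mean above the median. In that comparison 1 passed (Rpl7a, 0.39 ± 0.085, limma adjusted p = 0.030), with 1.48% of all genes called. At 20 mg/kg against all controls 15 passed, all higher, with 0.655% of all genes called higher, among them Rpl11 (0.53 ± 0.11, limma adjusted p = 0.024) and Rpl15 (0.50 ± 0.094, 0.022). Between 30 and 20 mg/kg 24 passed, all lower, with 8.16% of all genes called lower. Against own-numbered controls the counts by limma were 0 at 30 mg/kg, with 3.01% of all genes called, and 1 at 20 mg/kg (Rpl10, 0.60 ± 0.12, limma adjusted p = 0.032), with 0.358%. In these comparisons 57 of 71 (80.3%) were above 0 at 30 mg/kg and 68 of 71 (95.8%) at 20 mg/kg. Among genes with a mean above the median the shares were 52.4% and 55.7%.

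All 15 elongation and termination factor genes of the list were measured, with a median treated-control difference of 0.14 and 0 passing, with 1.48% of all genes called. Against all controls 1 of 15 passed at 20 mg/kg, with 1.18% of all genes called. At 30 mg/kg 1 of 15 passed, with 8.55% called. Eef1d, a subunit of the exchange factor of eEF1A, was higher at 20 mg/kg than in all controls by 0.67 ± 0.11 (limma, adjusted p = 0.011), and against controls 5 to 7 the difference of 0.60 ± 0.14 did not pass (limma, adjusted p = 0.094). Eef2k, the kinase that inhibits eEF2, was lower at 30 mg/kg than in all controls, with a difference of -0.56 ± 0.16 (limma, adjusted p = 0.033). Against controls 1 to 4 it was -0.40 ± 0.16 and did not pass (limma, adjusted p = 0.21). Pelo, a rescue factor of stalled ribosomes, was higher at 30 mg/kg than in controls 1 to 4 by 1.01 ± 0.26 (limma, adjusted p = 0.046). Against all controls its difference at 30 mg/kg was 0.61 ± 0.28, and at 20 mg/kg against controls 5 to 7 it was 0.38 ± 0.26, neither of which passed (limma, adjusted p = 0.19 and 0.73).

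Of the signalling genes between mTORC1 and translation, 13 of 14 were measured and 0 passed between treated and control, with 1.48% of all genes called. At 30 mg/kg against all controls 3 passed, with 8.55% of all genes called, 3.66% higher and 4.89% lower. These were Akt1s1 (PRAS40, an mTORC1 inhibitor; 0.48 ± 0.14) and Tsc1 (0.52 ± 0.14), both higher, and Pdcd4 (an eIF4A inhibitor; -0.69 ± 0.20), lower, with limma adjusted p of 0.033, 0.028 and 0.036. Against controls 1 to 4 none of them passed (0.20, 0.16 and 0.20). Of 15 poly(A)-binding and cap-end partner genes 9 were measured, and Pabpc4 was higher at 30 mg/kg than in all controls (0.54 ± 0.15, limma adjusted p = 0.035) but did not pass against controls 1 to 4 (0.55 ± 0.18, limma adjusted p = 0.11).

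Of the effectors of the integrated stress response, which follow phosphorylation of eIF2 alpha, 12 of 13 were measured. Between treated and control 1 passed, with 1.48% of all genes called. Atf4 was higher by 0.66 ± 0.16 (limma, adjusted p = 0.045). Ppp1r15a (GADD34, the phosphatase subunit that reverses eIF2 alpha phosphorylation) was higher at 30 mg/kg than in all controls by 1.21 ± 0.30 (limma, adjusted p = 0.019), and Ddit3 (CHOP) at 20 mg/kg than in all controls by 1.2 ± 0.26 (limma, adjusted p = 0.037). Against all controls 2 of 12 passed at 30 mg/kg (Atf4 and Ppp1r15a) and 1 of 12 at 20 mg/kg (Ddit3), all higher. Of all genes, 3.66% and 0.655% were called higher in these comparisons. Against own-numbered controls none of these 3 passed at either dose, with limma adjusted p from 0.093 to 0.49. The transcripts of the 4 eIF2 kinases did not pass in these comparisons, as given above.

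Marker transcripts of other cell types differed in some of the same comparisons, and in bulk tissue fewer cells of a type and less RNA per cell cannot be told apart. The mean of 11 macrophage and lymphocyte markers was 6.21 to 6.49 in controls and 5.36 to 6.19 in treated samples, without overlap. By limma 4 of 11 (Ptprc, Cd3d, Cd2 and Cd74) were called lower with treatment, with 0.965% of all genes called lower. Erythroid markers averaged 6.74 in controls, 5.42 at 30 mg/kg and 5.79 at 20 mg/kg, and 2 of 4 (Hbb and Hba-a3) were called lower in the same comparison. The mean of 10 chromaffin markers was 10.30 in controls, 9.82 at 30 mg/kg and 10.30 at 20 mg/kg, and that of 9 adrenal cortex markers 11.02, 11.19 and 10.66. Between 30 and 20 mg/kg, 3 of 10 chromaffin markers were called lower by limma and 3 of 9 cortex markers higher. Of all genes, 8.16% were called lower and 3.92% higher in this comparison, in which dose and number set cannot be told apart. Against controls 1 to 4, the chromaffin markers Ddc and Hand2 were called lower at 30 mg/kg by limma and the cortex marker Mrap higher. Of all genes, 1.52% were lower and 1.5% higher there. At 20 mg/kg against controls 5 to 7, 0 markers of either list were called. With each dose against its own controls, 0 of 10 chromaffin differences between 30 and 20 mg/kg were above 0, and 0 passed. The mean of 11 endothelial and fibroblast markers overlapped, at 7.08 to 7.48 in controls and 6.97 to 7.47 in treated samples. With treatment Flt1 was higher (0.74 ± 0.17) and Col3a1 lower (-0.68 ± 0.11), with limma adjusted p of 0.033 and 0.0064. Between 30 and 20 mg/kg, 4 of the 11 (Flt1, Cdh5, Col1a1 and Pdgfrb) were called higher, with 3.92% of all genes called higher. Their part in the differences of Eif5, Eif4a2, Eif1ad, Eif1b, Eif3e and Eif3k was not tested.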

How the data were processed

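Labelled RNA of 17 samples was hybridized to Affymetrix rat arrays. The values deposited by the authors are log2 values made by RMA, and Affymetrix Expression Console 1.3.0.187 appears in the submitters' processing notes. RMA equalizes the arrays' distributions, so a shift common to all genes is removed. The table held 29214 probe sets: 15310 with 1 symbol, 323 with several and 13581 not listed in the annotation, which left 14506 genes. A symbol with more than 1 probe set was represented by its brightest, on the mean over all arrays.

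Linear models were fitted to all genes by lmFit and eBayes of limma 3.58.1 (R 4.3.3), two-sided and with sex as a term. Benjamini-Hochberg adjustment covered all 14506 genes, and an adjusted p under 0.05 counted as a call. Treated against control came from a 2-group fit, dose comparisons from a 3-group fit, and comparisons with own-numbered controls from a fit with 2 control sets and 2 doses. The scripts' fits were tested on simulated data. The number of arrays limits the precision. No pair of arrays was identical (highest r = 0.991).

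The members, lists and comparisons were chosen with earlier results of these data known. The comparison of the control sets and the promoter motifs were added after the data were seen, CCAAT and TATAAA after the printed windows were seen. Named members were those past the threshold in any comparison, the 3 with the smallest p in each of eIF2, eIF3 and eIF4, and fixed roles; others are given by range or were named after their values were seen. Title numbers were not taken as pairs. Alternatives were other models, scalings, filters, thresholds and sample subsets, and leaving out each library.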

Additional observations from a re-analysis of the deposited data

Results flagged for a closer look

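Within groups of 4 to 7 samples, 84 sets of values of the named members were checked for a library far from the others, and 6 were found; chance gives about 1 in 20. Control replicate 4 was low for Eif2a (6.87, nearest 7.57) and for Eif4b (9.52, nearest 9.93). Replicate 2 at 30 mg/kg was low for Eif4a2 (10.03, nearest 10.82) and for Eif4b (9.95, nearest 10.41). At 20 mg/kg, replicate 10 was high for Eif1b (9.78, nearest 9.48) and replicate 8 for Eif2ak4 (7.51, nearest 7.17).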

How the results depend on the processing

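Eif5 between treated and control kept its direction and its call in all 29 alternatives run for it, with log2 changes of 0.59 to 0.69 and adjusted p of 0.00091 to 0.038 (limma), and no called value of a member changed sign in the alternatives run for the 7 comparisons. The comparison of the control sets and the genes of the other lists were not rerun. Counts of members called moved as follows. Between treated and control, 2 were called (main 1) with array weights, quantile normalization, the number set as a term or a threshold of 0.10. For 30 mg/kg against all controls, 1 was called (main 2) without sex or in females alone. For 20 mg/kg against all controls (main 2), 0 were called without sex or in females alone, 1 with quantile normalization or at 0.01, 4 with trended variances, median centring, the mean of probe sets or at 0.10, and 6 with array weights. Between doses (main 5), 2 were called in females alone or at 0.01, 8 with array weights and 10 at 0.10. For 30 mg/kg against controls 1 to 4 (main 1), 0 were called in numbers 1 to 4 alone and 3 at 0.10. For 20 mg/kg against controls 5 to 7 (main 0), 1 was called with array weights (Eif5) and 1 in numbers 5 to 10 alone (Eif4a2).

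With the replicate number as a block, 0 members passed at either dose against all controls, over 72 and 0 genes called, and the eIF3 median at 20 mg/kg was -0.053. Deviations of same-numbered samples from their set means had r from -0.286 to 0.230 over 7 numbers. A single correlation for each number cannot decide whether the numbers mark pairs. Which of the 2 models is the right one was therefore not settled. The eIF2 median in females alone was 0.35 at 20 mg/kg against all controls, 0.23 against controls 5 to 7 and -0.069 for the difference between doses, and it was -0.12 between doses with quantile normalization. Leaving out 1 library at a time gave counts of 1 to 2 (treated), 1 to 5 (20 mg/kg against all controls; 5 without control 5, 4 without 30 mg/kg replicate 2, and 1 without 20 mg/kg replicate 6, 7 or 8), 2 to 7 (between doses) and 1 to 3 (30 mg/kg against controls 1 to 4; 3 without 30 mg/kg replicate 2, and 2 without control 4 or 30 mg/kg replicate 1). It gave eIF2 medians of 0.12 (without control 4) to 0.28 at 20 mg/kg against all controls, and of -0.057 to 0.16 (without control 3) at 30 mg/kg against controls 1 to 4. It gave eIF3 medians of -0.034 to 0.076 at 30 mg/kg against all controls, 0.025 to 0.19 against controls 1 to 4, and 0.088 to 0.18 at 20 mg/kg against controls 5 to 7. Causes of these changes were not tested. Scaling moved the median of all genes by under 0.1 in each comparison.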
